A study of Homo sapiens with 12 samples.

Results

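Integrins are receptors of the cell surface, each built of an alpha and a beta subunit, and laminins are the matrix proteins of basement membranes, each built of an alpha, a beta and a gamma chain. The genes of both families were followed in the RNA-seq data of MDA-MB-231, an established human cell line from a triple-negative breast cancer. The members were all genes whose symbol is that of an integrin alpha subunit (18 genes), an integrin beta subunit (8 genes) or a laminin chain (12 genes), which gave 38 of the 60664 genes listed. There were 12 libraries. WT cells in normoxia, WT cells after 24 hr of hypoxia and CCAR2 KO cells in normoxia gave 4 libraries each, and no library of KO cells in hypoxia was analysed here. CCAR2 codes for DBC1, a nuclear protein that binds regulators such as SIRT1, and the KO was made with a CRISPR lentivirus. Whether the KO cells are 1 clone or a pool is not given in the sources used here, so the KO and any difference carried by the cells that were selected cannot be told apart.

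An integrin spans the membrane, binds matrix outside the cell and is tied to the cytoskeleton inside it. The alpha subunit largely sets the ligand. The products of ITGA3, ITGA6 and ITGA7 bind laminin, those of ITGA1, ITGA2, ITGA10 and ITGA11 bind collagen, and those of ITGA5, ITGAV, ITGA8 and ITGA2B bind proteins such as fibronectin and vitronectin. ITGB1 serves most alpha subunits, whereas the ITGB4 product pairs with that of ITGA6 alone and anchors epithelial cells to laminin through hemidesmosomes. Among laminins, LAMA3 and LAMB3 make chains of the epithelial laminin that ITGA3 and ITGA6 receptors bind, and LAMA5, LAMA4, LAMB1, LAMB2 and LAMC1 make chains of broadly expressed and vascular laminins.

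The deposited value of a gene was treated as an estimated count, and the sum per library was between 68599412 and 213743693. Levels are given as CPM, the count scaled to the TMM-adjusted library sum, and genes are compared with each other only as CPM per kb of annotated exon. CCAR2 itself was at 144, 145, 146 and 151 CPM in WT normoxia, at 149, 143, 154 and 152 CPM in WT hypoxia, and at 54.7, 56.7, 61.3 and 58.5 CPM in the KO libraries, so all 4 KO libraries were below all WT libraries. VIM, CD44, AXL, CAV1, PLAUR and MSN, the mesenchymal markers listed for this line, were at 127 CPM or more in WT normoxia, and ESR1, PGR and CDH1 were at 0.266, 0.0407 and 0.0422 CPM. ERBB2 (91 CPM) and KRT19 (624 CPM) were not low. The other epithelial and luminal breast markers listed were between 1.34 and 14.4 CPM in WT normoxia. The platelet markers PF4, GP9 and PPBP and the leukocyte markers CD3E, CD53 and LCP2 averaged at most 0.0412 CPM in any group. PTPRC averaged 0.205, 0.0968 and 0.0634 CPM in WT normoxia, WT hypoxia and KO, while CD14 (0.592, 0.668 and 0.939 CPM) and PECAM1 (2.56, 3.39 and 5.51 CPM) passed the test as higher in KO cells. Of the other endothelial markers, VWF (0.326, 0.418 and 0.169 CPM) and KDR (6.12, 4.66 and 5.06 CPM) were not called between KO and WT normoxia, at log2 fold changes of -0.94 and -0.27 (adjusted p of 0.0811 and 0.0506), and CDH5, at most 0.122 CPM, did not pass the filter there. The part of CD14 and PECAM1 in the results was not tested. WT hypoxia replicate 2 had the lowest mean correlation with the other replicates of its group (0.9719), and calls that changed without it are given beside the results.

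In WT normoxia a few subunits made up most of each family. ITGA3 had the highest level of the alpha subunits, at 96.7 ± 5.35 CPM per kb (SD, n = 4), which was 50.7% of the alpha sum per kb. ITGA6 followed at 42.2 ± 1.39, ITGA5 at 21 ± 0.889, ITGA2 at 12 ± 0.873, ITGAV at 10 ± 0.603 and ITGAE at 7.18 ± 0.495 CPM per kb, and none of these neighbours overlapped in the 4 libraries. With the longest transcript as length, ITGA2, ITGAV and ITGAE were at 12, 11.7 and 12.4 CPM per kb. The order of these last genes therefore depends on the length used. ITGA1 (0.889), ITGA10 (0.347) and ITGA7 (0.254 CPM per kb) were lower still. The most abundant alpha subunits were thus the laminin receptors ITGA3 and ITGA6.

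Among the beta subunits, ITGB1 was at 136 ± 4.88 CPM per kb, or 70.4% of the beta sum. ITGB4 was at 30.4 ± 2.95, ITGB5, a partner of ITGAV, at 20 ± 0.851, and ITGB2, known from leukocytes, at 6.47 ± 0.286 CPM per kb. The order of the first 5 beta subunits, with ITGB3 after ITGB2, was the same in hypoxia and in KO cells, but the share of ITGB4 in the beta sum was 15.7% in WT normoxia, 27% in hypoxia and 22.4% in KO cells, and that of ITGB1 was 70.4%, 58.2% and 65.1%.

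LAMB3 led the laminin chains in WT normoxia at 160 ± 6.4 CPM per kb, 52.5% of the laminin sum. LAMB2 (48 ± 2.81) and LAMA5 (45.6 ± 5.39 CPM per kb) came next and overlapped over the libraries. LAMC1 was at 35.9 ± 3.06, LAMB1 at 5.09 ± 0.235 and LAMA4 at 2.39 ± 0.107 CPM per kb. LAMA3 was near the bottom of the order, at 0.229 ± 0.0221 CPM per kb and overlapping LAMA1 (0.24 ± 0.0297), although the chain it codes for is found with that of LAMB3 in 1 laminin.

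**Figure D1:**
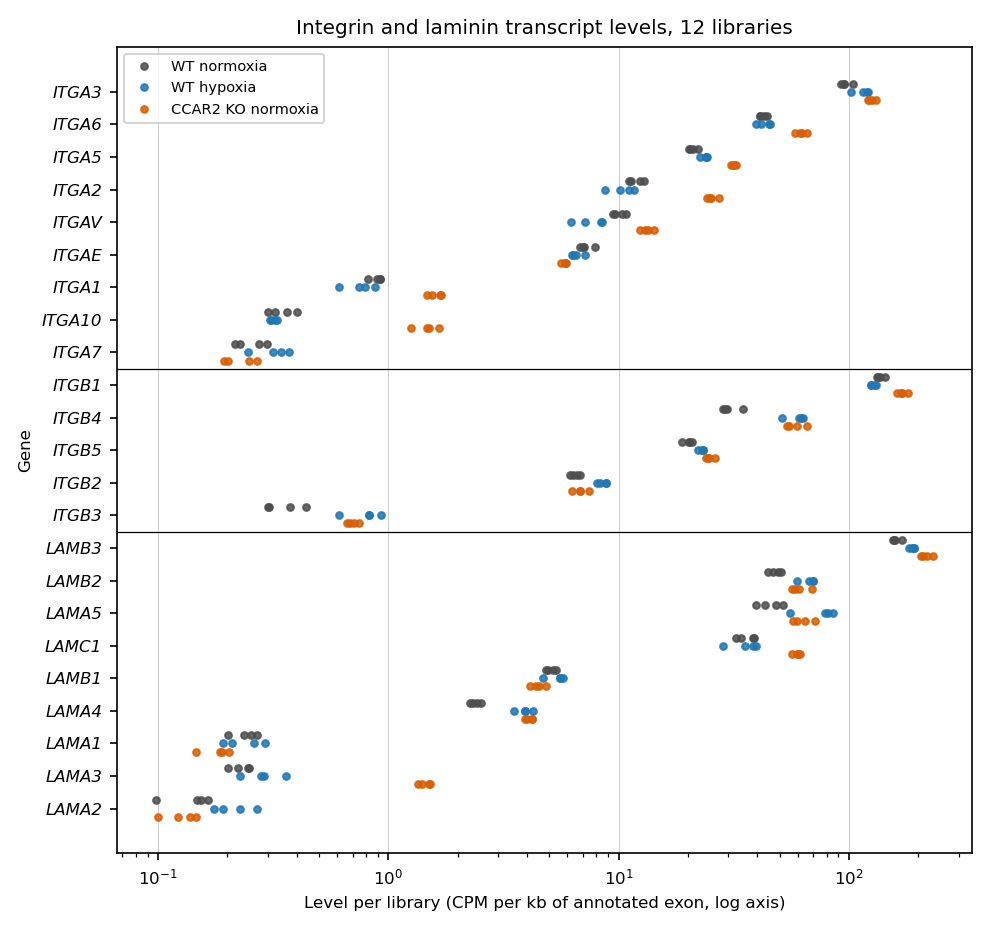
Level of 23 integrin and laminin genes with a mean of 1 CPM or more in any group, as CPM per kb of annotated exon on a log axis, with 1 point per library and 4 libraries per group. LAMB3, ITGB1 and ITGA3 lie at the top of their families in each group, and LAMA3 and ITGA10 show the KO libraries well apart from both WT groups.

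The remaining members were at the limit of what these libraries measure. ITGA8, which binds proteins with an RGD sequence, is listed at 0 in all 12 libraries. ITGA4, ITGAD, ITGAL, ITGAM and ITGAX, all known from leukocytes, averaged at most 0.049 CPM in any group and did not pass the filter on low counts in any comparison, and LAMC3 (at most 0.027 CPM) did not either. ITGB6 was tested only in the comparisons that include KO cells. In all, 30 of the 38 members were tested for hypoxia and 31 for KO, and 23 of 30 and 19 of 31 were not called.

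The first question was how hypoxia changed these genes in WT cells. A gene counted as called when edgeR's quasi-likelihood fit gave it a Benjamini-Hochberg adjusted p below 0.05 over all genes tested and its log2 fold change was 0.5 or more in size. After 24 hr of hypoxia 7 members were called higher and 0 lower, beside 7.26% of all 21776 genes called (5.83% higher, 1.43% lower). At an unadjusted p under 0.05, 14 members were higher and 3 lower, beside 35.3% of all genes (17.1% higher and 18.2% lower), and DESeq2 and limma-voom both called 0 lower. The median log2 fold change was 0.17 over the members tested and 0.01 over all genes. A bulk library averages its cells, so more cells that use a gene and more RNA per cell cannot be told apart.

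ITGB4 (ENSG00000132470, chr17:75721328-75757818 in GRCh38, plus strand) had the highest log2 fold change of the integrin genes above 10 CPM. It was at 192, 199, 195 and 235 CPM in WT normoxia and at 428, 345, 418 and 409 CPM in hypoxia. All hypoxia libraries were above all normoxia libraries, and the log2 fold change was 0.95 ± 0.08 (SE, adjusted p = 4.6e-05). Over the alternative fits without a library left out, removal of the GC trend among them, the value was between 0.75 and 0.97 and stayed called. ITGB4 is also drawn in a heat map that the study chose on these libraries, so its direction is not independent evidence.

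ITGB3, whose product pairs with that of ITGAV or ITGA2B and binds vitronectin and fibrinogen, rose from a low level. Its CPM were 1.33, 1.32, 1.64 and 1.92 in WT normoxia and 4.09, 2.69, 3.61 and 3.64 in hypoxia, with no overlap and a log2 fold change of 1.17 ± 0.17 (adjusted p = 8.7e-04). Of its annotated exon, 51.6% is shared with a second gene on the same strand, ENSG00000259753, which is listed at 0 in all libraries.

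Of the laminins, 3 alpha chains were called higher in hypoxia. No beta or gamma chain was, but the beta chain LAMB2 was just under the fold limit (log2 fold change 0.47, adjusted p = 6.9e-04). LAMA5 (ENSG00000130702, chr20:62307955-62367312 in GRCh38, minus strand), a chain of the laminins of most mature basement membranes, was at 688, 564, 617 and 738 CPM in WT normoxia and at 1124, 795, 1222 and 1158 CPM in hypoxia. Its groups did not overlap, though replicate 2 lay close to the normoxia range, and the log2 fold change was 0.71 ± 0.13 (adjusted p = 0.00248). LAMA5 had the highest GC content of the members (66.4%), and with the trend of each library on GC content removed its log2 fold change was 0.48, under the limit, with an adjusted p of 0.02.

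LAMA4 (ENSG00000112769, chr6:112108760-112254939 in GRCh38, minus strand), a chain of vascular and muscle laminins, was at 28.1, 26.3, 27 and 29.2 CPM in WT normoxia and at 49.4, 40.7, 45.4 and 45.5 CPM in hypoxia. The spread within each group was small against the gap between them (log2 fold change 0.70 ± 0.07, adjusted p = 6.6e-05). LAMA2, a chain of muscle laminin, was at 1.53, 1.7, 1.59 and 1.01 CPM in WT normoxia and at 2.78, 1.82, 2.34 and 1.98 CPM in hypoxia (log2 fold change 0.61 ± 0.19, adjusted p = 0.0417). The groups of LAMA2 did not overlap, but its adjusted p was near the threshold.

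The alpha subunits called were both of low count. ITGA2B, the alpha subunit of the platelet fibrinogen receptor, averaged 0.325 CPM in WT normoxia and 0.682 CPM in hypoxia (log2 fold change 1.06 ± 0.34, adjusted p = 0.0434), and ITGA9, a receptor subunit for tenascin and VCAM1, averaged 0.133 and 0.33 CPM (log2 fold change 1.29 ± 0.41, adjusted p = 0.0418). The calls of ITGA2B, ITGA9 and LAMA2 were lost without a filter on low counts (adjusted p of 0.0681, 0.0709 and 0.0699). All were also lost when WT normoxia replicate 1, WT hypoxia replicate 1 or WT hypoxia replicate 4 was left out, which left 4 members called, ITGB3, ITGB4, LAMA4 and LAMA5. Without WT normoxia replicate 4 these 4 and LAMB2 were called, and without WT hypoxia replicate 2 all 7 and LAMB2.

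Several abundant members moved in hypoxia by less than the limit on the fold. With the adjusted p alone, 13 members were higher and 1 lower, beside 23.5% of all genes (11.6% higher and 12% lower). Higher were also LAMB2 (329 ± 19.3 to 458 ± 34.2 CPM, log2 fold change 0.47), ITGB2 (44 ± 1.95 to 57.8 ± 2.59 CPM, 0.39), ITGA3 (948 ± 52.4 to 1124 ± 85.6 CPM, 0.24), LAMB3 (752 ± 30 to 882 ± 20.2 CPM, 0.22), ITGB5 (129 ± 5.49 to 147 ± 3.76 CPM, 0.18) and ITGA5 (159 ± 6.74 to 179 ± 5.61 CPM, 0.17). The groups of ITGA3 overlapped and those of the other 5 did not. With the GC trend removed LAMB2 was at 0.30 and ITGB2 at 0.23, while ITGA3 (0.07), LAMB3 (0.07), ITGB5 (0.10) and ITGA5 (0.02) no longer passed (adjusted p between 0.122 and 0.787). The gene that fell was ITGAV, a subunit shared by the vitronectin receptors, which was at 88.4, 79.3, 77.6 and 84.8 CPM in WT normoxia and at 69.5, 51.2, 69 and 58.7 CPM in hypoxia (log2 fold change -0.42 ± 0.09, adjusted p = 0.00803). Its groups did not overlap, and with the GC trend removed it was at -0.25 (adjusted p = 0.111).

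The collagen-binding alpha subunits showed no call in hypoxia. Their log2 fold changes were -0.24 ± 0.10 for ITGA1, -0.20 ± 0.09 for ITGA2, -0.14 ± 0.13 for ITGA10 and -0.18 ± 0.57 for ITGA11, with adjusted p-values between 0.11 and 0.866. For ITGA6, ITGB1 and LAMC1 the values were 0.01, -0.11 and -0.02, with 95% intervals of -0.11 to 0.14, -0.21 to 0.00 and -0.24 to 0.20. LAMA3 was at 0.33, with an interval of 0.02 to 0.65 and an adjusted p of 0.118.

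The second question was how the loss of CCAR2 changed the same genes in normoxia. In KO cells 12 members were called higher and 0 lower, beside 9.67% of 21410 genes called (6.73% higher, 2.94% lower). At an unadjusted p under 0.05, 19 members were higher and 5 lower, beside 39.4% of all genes (19.6% higher and 19.8% lower), while limma-voom called 0 lower and DESeq2 called 1 lower, ITGA11. The median log2 fold change was 0.40 over the members tested and 0.01 over all genes. Higher were 5 alpha subunits, 3 beta subunits and 4 laminin chains. The collagen-binding alpha subunits had 3 of 4 members called.

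**Figure D2:**
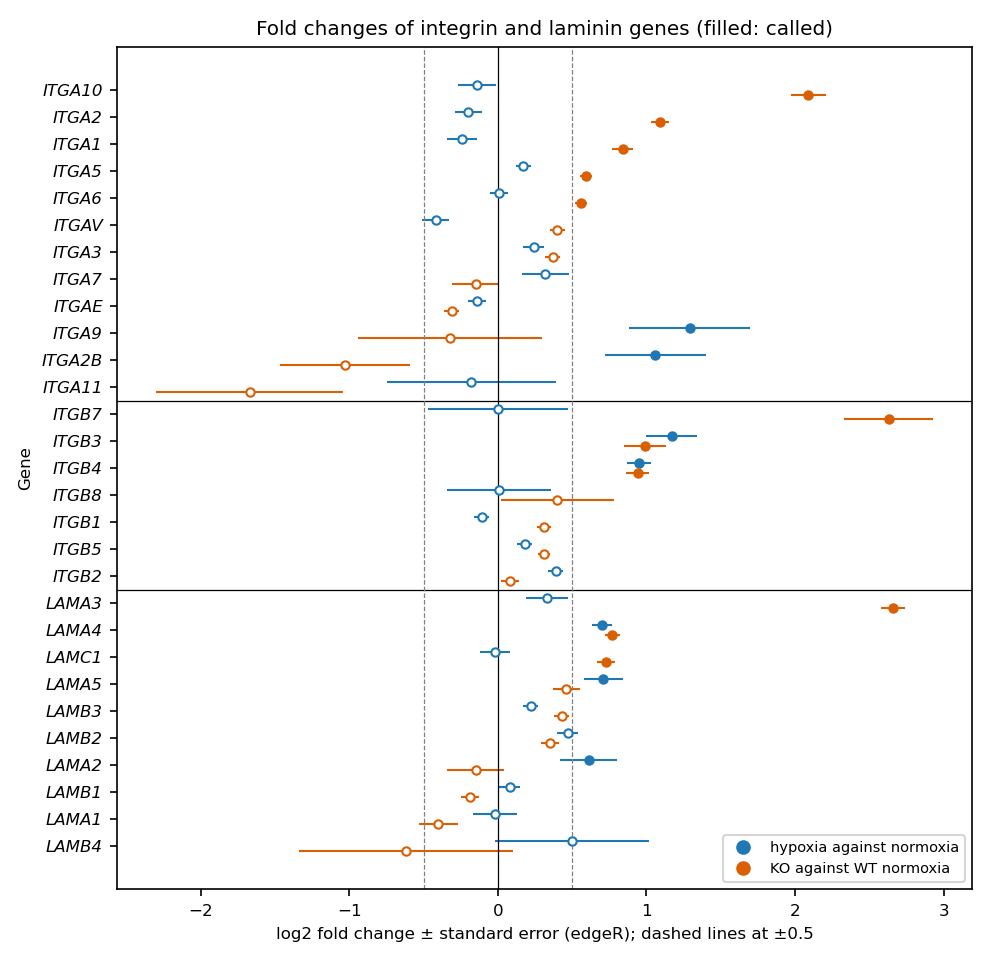
log2 fold change ± SE (edgeR) of 29 members tested in both comparisons, for hypoxia and for KO, each against WT normoxia, with filled symbols where the gene was called and dashed lines at the fold limit of 0.5. The highest KO values belong to LAMA3 (2.66), ITGB7 (2.63) and ITGA10 (2.09), whose hypoxia values lie between -0.14 and 0.33, while ITGB3, ITGB4 and LAMA4 are filled in both.

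LAMA3 and LAMB3, of the epithelial laminin, had higher levels in KO cells, by unequal amounts. LAMA3 (ENSG00000053747, chr18:23689443-23956222 in GRCh38, plus strand) was at 3.63, 2.95, 3.61 and 3.25 CPM in WT normoxia and at 20.6, 19.8, 22.3 and 22.1 CPM in KO cells. The KO libraries were far above every WT library, including the hypoxia libraries at 4.11, 3.34, 5.29 and 4.24 CPM. The log2 fold change was 2.66 ± 0.08, or 6.31-fold (adjusted p = 2.1e-09), the highest of the members tested.

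LAMB3 (ENSG00000196878, chr1:209614870-209652466 in GRCh38, minus strand), the beta chain, was at 731, 739, 743 and 797 CPM in WT normoxia and at 987, 968, 1089 and 1020 CPM in KO cells, and its log2 fold change of 0.43 ± 0.05 (adjusted p = 3.6e-05) was under the limit.

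Per kb of exon, the LAMA3 level was 0.00143 ± 0.000163 of the LAMB3 level in WT normoxia, 0.00153 ± 0.000263 in hypoxia and 0.00667 ± 0.000177 in KO cells. In this ratio the 4 KO libraries lay above all WT libraries, and LAMB3 had the highest level per kb of the laminin chains in each group. With the length of the longest transcript in place of all exons the ratio of LAMA3 to LAMB3 was 0.00181 in WT normoxia and 0.00843 in KO cells.

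The sequences before the starts of these genes were searched for the letters TGANTCA, which factors of the AP-1 family are known to bind and which read the same on both strands. RefSeq windows of 250 bases before a start (GRCh38.p14) were matched for 26 of the 38 members, in 33 windows, and ITGB4 was not among them. The letters were present in 2 of these windows, in LAMA3 and in 1 of the windows of LAMB3, and in 6.57% of 35116 RefSeq windows. The share among the member windows was thus close to that over all windows. The matches are shown only because both genes code for chains of 1 laminin. Each is given 5′ to 3′ on the strand of its gene with the matched letters in capitals. They lie 125 and 69 bases before the RefSeq start of LAMA3, at chr18:23872885-23872911 and chr18:23872941-23872967, and 67 bases before a start of LAMB3, at chr1:209651425-209651451.
LAMA3, first match: tggcacaggcTGACTCAtgtgtgaagt
LAMA3, second match: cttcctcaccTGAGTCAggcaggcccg
LAMB3: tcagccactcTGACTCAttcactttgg

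The LAMA3 window belongs to a start inside the gene as annotated, and both matches also lie in an annotated exon of a longer LAMA3 transcript. The LAMB3 window with the match also belongs to a start inside its gene as annotated, and the other LAMB3 windows held no match. The core letters bound by hypoxia-inducible factors were searched on both strands as ACGTG and GCGTG, and CACGTG is counted once on each strand. ACGTG was in 3 of the 33 windows (18.5% of all windows), in ITGA6 and ITGA11, and GCGTG was in 9 (32.2% of all windows), in 8 members, ITGA2, ITGA2B, ITGA4, ITGA5, ITGA6, ITGB5, ITGB8 and LAMA2. Of the members called higher in hypoxia, ITGA2B and LAMA2 held GCGTG, and the windows of LAMA4 and LAMA5 held none of these letters. ITGB3, ITGB4 and ITGA9, also called higher, had no matched window and were not searched. A match is a description of the letters alone.

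LAMC1 (ENSG00000135862, chr1:183023460-183145592 in GRCh38, plus strand), the gamma chain of most laminins, was at 322, 273, 286 and 324 CPM in WT normoxia and at 516, 476, 500 and 505 CPM in KO cells. Its KO libraries were all higher, with a log2 fold change of 0.73 ± 0.06 (adjusted p = 2.1e-06). LAMA4, called higher in hypoxia too, rose in KO cells to 48.7, 45.6, 48.7 and 46.3 CPM (log2 fold change 0.77 ± 0.05, adjusted p = 3.2e-07). The WT normoxia libraries are shared by the hypoxia and KO comparisons, so their values are not independent.

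Other laminin chains stayed under the limit in KO cells. LAMA5 was at 847, 814, 1017 and 918 CPM (log2 fold change 0.46 ± 0.09, adjusted p = 0.00151), and it passed the limit at 0.53 without WT normoxia replicate 4 and at 0.50 without KO replicate 2. LAMB2 had a log2 fold change of 0.35. LAMB1, the beta chain of the laminins made early in development, was 41.4 ± 1.92 CPM in WT normoxia and 36.4 ± 2.36 CPM in KO cells (-0.19 ± 0.06, adjusted p = 0.0221), and LAMA1 was 3.81 ± 0.471 and 2.88 ± 0.392 CPM (-0.40 ± 0.13, adjusted p = 0.0361).

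**Figure D3:**
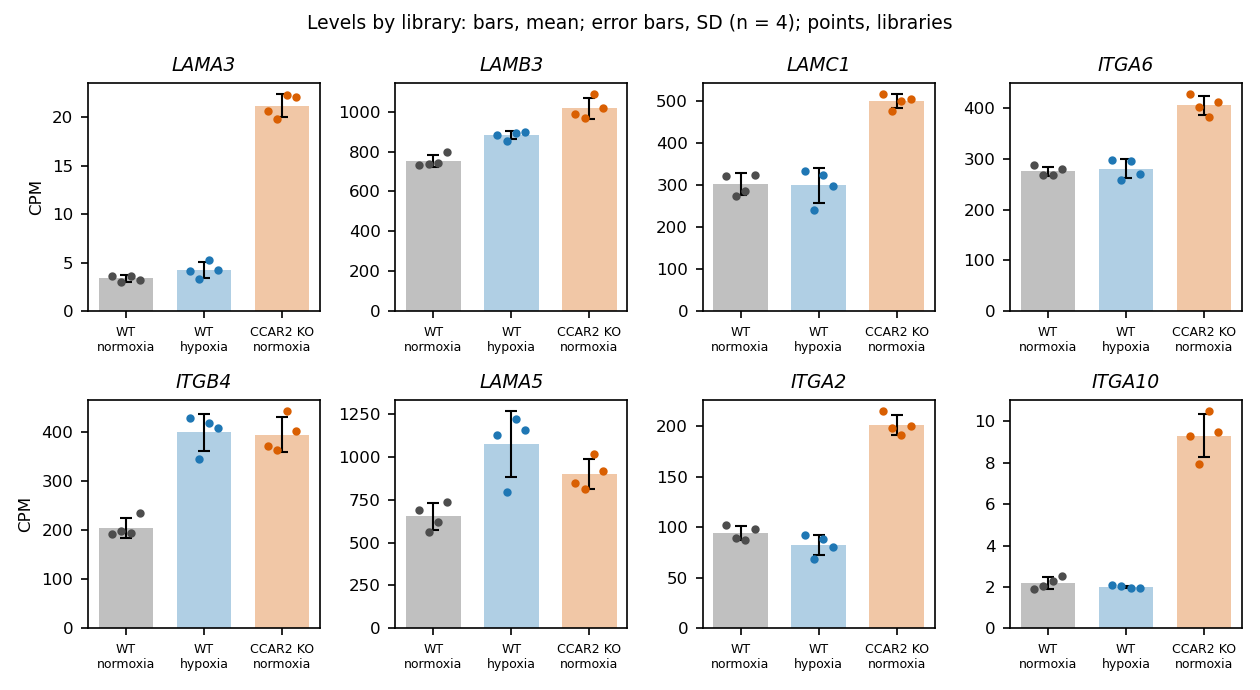
CPM of 8 members in WT normoxia, WT hypoxia and CCAR2 KO normoxia, with bars for the mean, error bars for the SD (n = 4) and 1 point per library. LAMA3, LAMC1, ITGA2 and ITGA10 are higher in KO cells (means of 21.2, 499, 201 and 9.3 CPM), and ITGB4 averages 205 CPM in WT normoxia, 400 CPM in hypoxia and 395 CPM in KO cells.

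Of the collagen receptors, ITGA2 (ENSG00000164171, chr5:52989326-53094779 in GRCh38, plus strand) was the most abundant. It was at 102, 89.8, 87.7 and 98.4 CPM in WT normoxia and at 215, 198, 191 and 200 CPM in KO cells. The lowest KO library was well above the highest WT library, and the log2 fold change was 1.09 ± 0.06 (2.12-fold, adjusted p = 5.4e-08). Its neighbour on the chromosome, ITGA1 (ENSG00000213949, chr5:52787896-52959210 in GRCh38, plus strand), was at 17, 16.6, 15.2 and 17.1 CPM in WT normoxia and at 31.5, 28.7, 27.2 and 31 CPM in KO cells (log2 fold change 0.84 ± 0.07, adjusted p = 1.6e-06).

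ITGA10 (ENSG00000143127, chr1:145891208-145910189 in GRCh38, minus strand), a collagen receptor subunit known from cartilage, was at 1.9, 2.03, 2.3 and 2.53 CPM in WT normoxia and at 9.29, 7.96, 10.5 and 9.49 CPM in KO cells. All KO libraries were higher, by 4.25-fold (log2 fold change 2.09 ± 0.12, adjusted p = 1.2e-07). Per kb of exon it reached 1.47 ± 0.164 CPM, overlapping ITGA1 at 1.59 ± 0.109, whereas ITGA2 was at 25.4 ± 1.29 CPM per kb. With the longest transcript as length, ITGA10 averaged 1.77 and ITGA1 averaged 2.75 CPM per kb in KO cells. The remaining collagen receptor subunit, ITGA11, averaged 0.145 CPM in WT normoxia and 0.0417 CPM in KO cells, and its log2 fold change was -1.67 ± 0.63 (adjusted p = 0.0668).

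ITGA6 (ENSG00000091409, chr2:172427354-172506282 in GRCh38, plus strand), the laminin receptor subunit that pairs with ITGB1 or ITGB4, was at 287, 268, 269 and 279 CPM in WT normoxia and at 428, 402, 383 and 411 CPM in KO cells. The groups did not overlap (log2 fold change 0.56 ± 0.04, adjusted p = 2.0e-06). ITGB4 was at 372, 364, 443 and 402 CPM in KO cells, again above all WT normoxia libraries (log2 fold change 0.94 ± 0.08, adjusted p = 1.9e-06). Per kb of exon the ratio of ITGA6 to ITGB4 was 1.4 ± 0.131 in WT normoxia, 0.727 ± 0.0362 in hypoxia and 1.07 ± 0.13 in KO cells, and the ranges of the 3 groups did not overlap. Per kb, ITGA6 was thus above ITGB4 in every WT normoxia library and below it in every hypoxia library.

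ITGA5 (ENSG00000161638, chr12:54395261-54419460 in GRCh38, minus strand), the main fibronectin receptor subunit, was at 160, 153, 154 and 168 CPM in WT normoxia and at 234, 238, 246 and 240 CPM in KO cells. The KO libraries lay close together and above both WT groups (log2 fold change 0.59 ± 0.04, adjusted p = 5.4e-07). ITGB3 was at 3, 2.91, 3.13 and 3.27 CPM in KO cells, with no overlap with WT normoxia (log2 fold change 0.99 ± 0.14, adjusted p = 2.5e-04).

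ITGB7, a leukocyte beta subunit, was at 0.0667 to 0.17 CPM in WT normoxia, at 0.0735 to 0.157 CPM in hypoxia and at 0.656 to 0.889 CPM in KO cells, from 62 to 102 counts per KO library. The log2 fold change was 2.63 ± 0.30 (adjusted p = 4.0e-05). Of its exon, 42.1% overlaps ZNF740 on the other strand, and without strand reads of both cannot be told apart there. ZNF740 itself averaged 46.7 CPM in WT normoxia and 47.4 CPM in KO cells (log2 fold change 0.02). Its usual partners ITGA4 and ITGAE were at 0 in all KO libraries and at 38.6 ± 0.834 CPM, respectively.

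With the adjusted p alone, 19 members were higher and 3 lower in KO cells, beside 30.4% of all genes (14.9% higher and 15.4% lower). The 7 added as higher, all under the fold limit, included the most abundant integrin genes. ITGB1 was at 861, 819, 806 and 794 CPM in WT normoxia and at 1083, 1018, 1008 and 971 CPM in KO cells (log2 fold change 0.31 ± 0.05, adjusted p = 2.5e-04). ITGA3, its laminin-binding partner, had a log2 fold change of 0.37 ± 0.05, ITGAV one of 0.40 ± 0.05 and ITGB5 one of 0.31 ± 0.04. The lower genes were LAMA1, LAMB1 and ITGAE, the alpha subunit of an E-cadherin receptor (47.8 ± 3.3 to 38.6 ± 0.834 CPM, log2 fold change -0.31 ± 0.05, adjusted p = 8.3e-04), and 6.41% of the exon of ITGAE overlaps HASPIN on the other strand.

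KO cells were then set directly against hypoxic WT cells, which is the test of whether both changes differ. Of the 31 members tested, 9 were higher and 3 lower in KO cells, beside 15% of 21158 genes called (7.08% higher, 7.88% lower). The higher ones included LAMA3 (log2 difference 2.31 ± 0.12), ITGB7 (2.61 ± 0.30), ITGA10 (2.22 ± 0.11), ITGA2 (1.28 ± 0.08), ITGA1 (1.07 ± 0.10), ITGAV (0.81 ± 0.09), LAMC1 (0.74 ± 0.09) and ITGA6 (0.53 ± 0.06), with adjusted p-values between 9.1e-08 and 7.3e-05. The difference of ITGA6 was under the limit without WT hypoxia replicate 2 (0.49), with the GC trend removed (0.46) and, by a margin lost in rounding, with the length trend removed (0.50). With the adjusted p alone 12 members were higher and 7 lower, beside 34.9% of all genes (17.1% higher and 17.8% lower). ITGAV was the member that fell in hypoxia and had a higher level in KO cells, at 62.1 ± 8.81 against 109 ± 6.26 CPM, and per kb its ratio to ITGB5 was 0.503 ± 0.0454 in WT normoxia, 0.33 ± 0.0411 in hypoxia and 0.537 ± 0.0501 in KO cells.

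Lower in KO cells than in hypoxia were LAMA2 (log2 difference -0.77 ± 0.18, adjusted p = 0.00636), ITGA2B (-2.10 ± 0.40, adjusted p = 0.00161) and ITGA9 (-1.63 ± 0.56, adjusted p = 0.0422). The call of ITGA9 was lost in each of 6 fits that left out 1 library, namely WT hypoxia replicate 1, 3 or 4 or KO replicate 1, 3 or 4, and its adjusted p was then between 0.0564 and 0.116. ITGA7, a laminin receptor subunit known from muscle, was called lower as well without WT hypoxia replicate 2 (-0.59, adjusted p = 0.014), without KO replicate 3 (-0.57) and with the length trend removed (-0.51).

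The genes called higher in both comparisons were ITGB3, ITGB4 and LAMA4. For these no difference between KO cells and hypoxic cells was detected, with log2 differences of -0.19 for ITGB3 (95% interval -0.49 to 0.11), -0.02 for ITGB4 (-0.20 to 0.15) and 0.06 for LAMA4 (-0.07 to 0.20). The intervals leave room for differences of that size. LAMA5 was at -0.26 (-0.53 to 0.00, adjusted p = 0.119). With the GC trend removed the value for ITGB4 turned to 0.13, and with the length trend removed that for LAMA4 turned to -0.04.

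**Figure D4:**
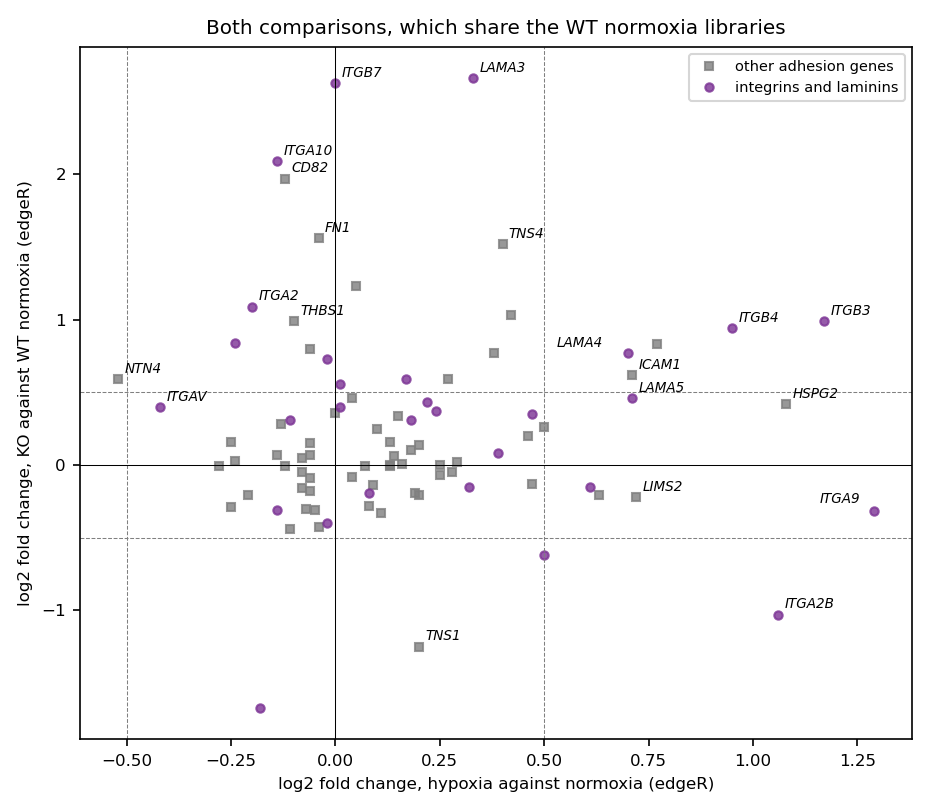
log2 fold change in KO cells (vertical axis) against that in hypoxia (horizontal axis), both against the same WT normoxia libraries (edgeR), for the integrins and laminins and for the other adhesion genes tested in both, with dashed lines at the fold limit of 0.5. ITGB3, ITGB4 and LAMA4 lie past the limit on both axes, LAMA3, ITGA10 and FN1 on the vertical axis alone, and HSPG2 on the horizontal axis alone.

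Integrins and laminins work with other matrix proteins, receptors and linkers, and 65 such genes were listed and followed in the same fits. In hypoxia 4 of the 60 tested were called higher and 1 lower, against 5.83% and 1.43% of all genes, with a median log2 fold change of 0.09. In KO cells 11 of 61 were higher and 1 lower, against 6.73% and 2.94% of all genes, with a median of 0.03. Between KO and hypoxia 8 of 60 were higher and 4 lower, against 7.08% and 7.88% of all genes, with a median of -0.08.

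The highest in hypoxia was HSPG2, which codes for perlecan, a basement membrane proteoglycan that binds laminin networks. It was at 145, 109, 124 and 155 CPM in WT normoxia and at 307, 200, 329 and 298 CPM in hypoxia, with no overlap (log2 fold change 1.08 ± 0.15, adjusted p = 6.6e-04). LIMS2, a linker of the integrin-bound ILK complex (0.72), and the adhesion molecules ICAM1 (0.71) and ICAM5 (0.63) were also higher, and these are among the genes of the study's heat map. NTN4, a laminin-related netrin that can loosen laminin networks, was lower, from 31.1 ± 1.59 to 21.8 ± 2.59 CPM (-0.52 ± 0.08, adjusted p = 0.00142). The call of NTN4 in hypoxia was lost without WT normoxia replicate 1, WT hypoxia replicate 2 or WT hypoxia replicate 4, and that of ICAM5 with the GC trend removed (0.39). Without WT hypoxia replicate 2, the laminin receptor gene BCAM (0.51) and AGRN, which codes for the laminin-binding agrin (0.55), were called higher in hypoxia, and ACTN1, an actin linker, was called lower in KO cells than in hypoxia (-0.52).

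In KO cells FN1 had the highest log2 fold change of the listed genes above 100 CPM. It codes for fibronectin, the ligand of the ITGA5 receptor, and was at 448, 365, 380 and 458 CPM in WT normoxia, at 447, 320, 436 and 411 CPM in hypoxia and at 1222, 1145, 1277 and 1216 CPM in KO cells. Only the KO libraries were apart (log2 fold change 1.56 ± 0.07, adjusted p = 3.1e-08). CD82, a tetraspanin that associates with integrins, went from 5.34 ± 0.892 to 20.9 ± 1.01 CPM (1.97 ± 0.11), and COL17A1, the hemidesmosome collagen that ITGB4 binds, from 9.75 ± 1.08 to 19.9 ± 1.56 CPM (1.03 ± 0.09).

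Tensins, which link integrin tails to actin, moved in both directions in KO cells. TNS4 went from 4.24 ± 0.322 to 12.2 ± 1.33 CPM (log2 fold change 1.52 ± 0.10, adjusted p = 2.8e-07), and TNS1 from 36.6 ± 2.31 to 15.4 ± 1.44 CPM (-1.25 ± 0.07, adjusted p = 1.7e-07). PTK2B, a kinase related to focal adhesion kinase, went from 0.602 ± 0.139 to 1.42 ± 0.288 CPM (1.23 ± 0.21, adjusted p = 8.3e-04). TNS2, FBN1, THBS1, MFGE8, ICAM1 and NTN4 were the other genes called higher. NTN4 was therefore lower in hypoxia and higher in KO cells, and the direct difference between them was 1.09 ± 0.08 (adjusted p = 1.4e-06).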

How the data were processed

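The deposited table holds expected counts per gene, whole numbers that the authors estimated for each library and did not scale to library size. According to the study's methods, poly-A reads were cleaned, aligned with Hisat2 and quantified with StringTie. The labels' processing notes name HISAT2, SAMtools and featureCounts, and a different RNA extraction and library kit. Build, annotation and strand setting are not given in the sources used here. Positions, exon lengths and GC content were taken from GENCODE 29 (GRCh38), which held all 38 members.

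Groups were taken from the sample labels, with 12 libraries used and none left out. The study's methods call the replicates biological, with fewer per condition than the 4 libraries that the labels give, and do not say that they are separate cultures, so p-values cover the spread between these libraries, which may be technical. Library sums were between 68599412 and 213743693, with a median of 153116269. Counts were rounded and fitted per pair of groups with edgeR 4.0.16 in R 4.3.3 (filterByExpr, TMM, glmQLFit, glmQLFTest), with Benjamini-Hochberg adjustment over all genes tested. SE is the absolute log2 fold change divided by the root of F. A single gene compared over 4 libraries against 4 by a two-sided exact permutation test cannot go below p = 0.0286. The members called in hypoxia and in KO cells reached this value, unadjusted. They were selected by the fit on the same libraries, so this is no separate support, and the share of all genes that reach it was not computed. Fits were tested on simulated data.

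The members, lists and tests were chosen with earlier results of these data known. Members called in hypoxia or KO with a mean of at least 100 counts are given by library, other members with a mean of at least 1 CPM by level, and the rest by range, while of the other adhesion genes up to 5 highest and 5 lowest calls with at least 100 counts are described. A member and a marker gene are counted but not reported singly here. THBS1, TNS2, FBN1, MFGE8, BCAM, AGRN and ACTN1 are named as members of a count or a changed call.

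The alternatives were DESeq2 1.42.0, limma-voom (limma 3.58.1), RLE normalization, leaving out the filter, a floor of 10 counts in every library, a replicate block, a single fit of all 12 libraries, removal of a lowess trend on GC content or exonic length, the adjusted p alone, a log2 fold change limit of 1, and each library left out. No genome sequence or protein table was used.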

Additional observations from a re-analysis of the deposited data

Results flagged for a closer look

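In 4 of the 78 groups of 4 libraries tested over 26 genes, 1 library stood apart from the other 3 by more than Dixon's 95% limit on its gap as a share of the group's range, and chance would give 3.9 such groups. The share was 0.873 for ITGA2B in WT normoxia replicate 1 (0.145 CPM, the next library at 0.369 CPM), 0.915 for ITGA5 in WT hypoxia replicate 2 (171 CPM, next 182 CPM), 0.84 for ITGB4 in WT normoxia replicate 4 (235 CPM, next 199 CPM) and 0.85 for ITGB5 in WT hypoxia replicate 2 (142 CPM, next 149 CPM). Without WT normoxia replicate 1 the log2 fold change of ITGA2B was 0.82 in hypoxia (adjusted p = 0.0676) and -1.28 in KO cells (adjusted p = 0.0354, called lower). The calls of ITGA5 and ITGB4 in either comparison with WT normoxia did not change when any of the 8 libraries was left out.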

How the results depend on the processing

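Of 1319 alternative values for the 78 gene results, 1245 kept their direction and their side of the threshold, 37 lost the call, 10 gained one and 27 changed sign, all for genes not called. In hypoxia ITGB1 went from -0.11 to 0.03 (GC trend removed), ITGA6 from 0.01 to -0.01 (no filter), ITGB7 from 0.00 to 0.12 (limma-voom) and 0.00 (replicate block), LAMA1 from -0.02 to 0.04 (limma-voom), 0.03 (length trend) and 0.00 (10 counts in every library) and LAMC1 from -0.02 to 0.00 (length trend). Between KO and hypoxia ITGB4 went from -0.02 to 0.13 (GC trend) and LAMA4 from 0.06 to -0.04 (length trend). With 1 library left out ITGA6 was at -0.01 to 0.05, ITGB7 at -0.21 to 0.21, LAMA1 at -0.13 to 0.08 and LAMC1 at -0.08 to 0.06 in hypoxia, and ITGB4 at -0.09 to 0.02 between KO and hypoxia. The cause was not tested. Members called higher in hypoxia were 7, or 4 without a filter, 13 with the adjusted p alone, 3 at a log2 fold change of 1 and 4 to 8 with 1 library left out, and those called lower were 1 with the adjusted p alone and 0 with 1 library left out. In KO cells the 12 higher members were 19, 5 and 12 to 13 under the last 3 choices, and lower ones were 1 by DESeq2 (ITGA11), 3 with the adjusted p alone and 0 to 1 with 1 library left out. Between KO and hypoxia the 3 lower members were 1 at 10 counts in every library, since ITGA2B and ITGA9 were then not tested, 5 with the length trend removed, 7 with the adjusted p alone and 2 to 4 with 1 library left out, and the 9 higher were 8 to 9.

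With the adjusted p alone 13 of 60 other adhesion genes were higher and 6 lower in hypoxia, beside 11.6% and 12% of all genes. In KO cells 19 of 61 were higher and 13 lower, beside 14.9% and 15.4% of all genes. Between KO and hypoxia 16 of 60 were higher and 18 lower, beside 17.1% and 17.8% of all genes. At a log2 fold change of 1 the higher and lower counts were 1 and 0 in hypoxia, 5 and 1 in KO cells and 6 and 1 between them. The share of all genes at that limit was not computed, for these genes or for the members. With 1 library left out and both main limits the counts were 4 to 7 and 0 to 1, 11 to 13 and 1, and 8 and 4 to 5. GC content and length were known for 97.9% or more of the genes tested.

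The replicate number does not act as a pairing, with correlations of deviations between -0.025 and 0.065. With a replicate block 5 members were higher in hypoxia (ITGA2B and ITGA9 lost), 12 in KO cells, and 9 higher and 3 lower between KO and hypoxia. Depth limits ITGA2B, ITGA9, ITGA11, ITGB6, ITGB7, ITGB8 and LAMB4, at means under 1 CPM.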
